A study of Mus musculus with 6 samples.

Results

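Skeletal stem and progenitor cells (SSPCs) were profiled by ATAC-seq, in which a transposase cuts open DNA so that reads gather where chromatin is accessible. The regions described here had a called peak in each of the 3 middle-aged libraries and in exactly 1 or 2 of the 3 young libraries, so they were always found in middle-aged cells and sometimes in young ones. Peaks of the 6 lists were merged into 63840 regions wherever they overlapped by at least 1 bp, and 10212 of these (16.0%) met the rule. They were chosen by the peak calls themselves, so the number of calls, their strength and any property that moves with strength are given as descriptions.

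All 6 libraries came from untreated C57BL/6 mice, from bone marrow of the tibia and femur grown in flasks and used as SSPCs at the first passage. The labels call the groups young and middle-aged and give no age in months for these libraries. The cultures came from no fewer than 3 different mice, but the labels do not tie a library to an animal, and the cells were not described as sorted. Any p-value therefore measures the spread between these libraries. The lists held 27628 to 43941 peaks in young and 46364 to 48344 in middle-aged libraries. Young 3 had the shortest list and the lowest genome-wide background, 1.65 reads per base, against 2.40 to 3.75 in the other libraries. Start sites were read against marker lists to check the cell label. All of the 14 macrophage genes had a peak within 1000 bp of a transcription start site (TSS) in at least 1 library, with 12 to 14 of them in each library, while 4 to 13 of the 20 SSPC and marrow niche genes did. Lepr, Prrx1, Vcam1, Ly6a, Thy1, Mcam and Nes had no TSS peak in any library. The summed TSS heights of the niche genes were 47.4 to 100.3 times background in young and 112 to 156 in middle-aged libraries. Those of the macrophage genes were 121 to 196 and 201 to 203, with Csf1r or Csf1r and Mpeg1 lacking a TSS peak in 4 libraries. The offset was not particular to niche genes. Osteogenic genes had 105 to 151 and 182 to 206, and adipogenic genes 125 to 197 and 246 to 265. For contractile and pericyte genes the ranges overlapped, at 16.0 to 35.7 and 33.7 to 47.6. The sums count called peaks alone, so they depend on the number of calls. The part of other marrow cells in the results was not tested, and in bulk chromatin fewer cells of a type and less open chromatin per cell cannot be told apart.

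Open chromatin marks promoters, where transcription starts, and distal elements such as enhancers, where sequence-specific factors bind and act on genes that may lie far away. Promoters of widely used genes tend to be open in most cell types, while distal elements differ more between cell types and states. SSPCs of the marrow give rise to bone-forming osteoblasts and to adipocytes, and Notch signaling between neighbouring cells is among the pathways that steer this choice.

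The sequences below belong to the strongest regions of the set. They are shown so that the letters counted later can be seen in place, and they cover 200 bases around the highest summit, read from the plus strand of GRCm38.p6, which is the mm10 build of the peak lists. They are 5 of the 10 regions of highest mean rank, with windows that touched no annotated exon, each named by the nearest protein-coding TSS, and all 5 also met the rule in equally long lists. Capitals mark matches on either strand to the letters of AP-1 (TGANTCA), RBPJ (TGGGAA), CTCF (AGGNGGC), SP/KLF (GGGCGG), C/EBP (TTGCNNAA), ETS (CCGGAAG), EBF (CCCNNGGG) and NF-Y (CCAAT). Matches that overlap run together, as do the SP/KLF and CTCF letters near 9230112D13Rik. The letters of TEAD (GGAATG), RUNX (TGTGGT), PU.1 (GAGGAAG) and an E-box (CAGCTG) were also searched and are in none of these windows.
Slc6a5 (chr7:49923515-49923714): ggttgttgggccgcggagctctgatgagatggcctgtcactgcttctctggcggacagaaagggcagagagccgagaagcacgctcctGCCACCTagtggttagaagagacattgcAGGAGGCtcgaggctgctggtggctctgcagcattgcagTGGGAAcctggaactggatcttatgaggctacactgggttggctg
9230112D13Rik (chr14:34549429-34549628): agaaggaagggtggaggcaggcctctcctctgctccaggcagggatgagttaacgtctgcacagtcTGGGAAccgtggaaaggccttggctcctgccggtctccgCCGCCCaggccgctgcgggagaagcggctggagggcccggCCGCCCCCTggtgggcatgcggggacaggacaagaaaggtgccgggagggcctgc
Mmel1 (chr4:154864270-154864469): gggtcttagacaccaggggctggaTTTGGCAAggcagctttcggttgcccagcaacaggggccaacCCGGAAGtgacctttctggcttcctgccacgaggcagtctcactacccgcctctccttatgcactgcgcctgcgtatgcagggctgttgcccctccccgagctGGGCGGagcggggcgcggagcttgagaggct
Htra1 (chr7:130968639-130968838): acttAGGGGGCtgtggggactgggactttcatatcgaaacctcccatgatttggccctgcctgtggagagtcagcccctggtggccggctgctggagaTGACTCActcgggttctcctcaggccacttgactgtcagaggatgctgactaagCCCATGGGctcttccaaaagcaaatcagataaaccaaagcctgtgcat
Ltbp4 (chr7:27335989-27336188): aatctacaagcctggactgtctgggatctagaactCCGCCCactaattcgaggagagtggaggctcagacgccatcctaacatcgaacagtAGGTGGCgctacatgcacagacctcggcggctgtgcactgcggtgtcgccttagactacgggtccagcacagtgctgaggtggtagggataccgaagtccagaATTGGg

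Of all 63840 regions, 15.9% held the AP-1 letters in such a window, 18.9% those of RBPJ, 21.0% those of CTCF, 19.8% those of SP/KLF and 10.9% those of C/EBP. The ETS letters were in 4.50%, those of EBF in 8.72% and those of NF-Y in 23.3%. TEAD letters were in 12.7%, RUNX letters in 21.2%, PU.1 letters in 17.5% and the E-box in 15.1%. A match describes the sequence and does not show that a factor was bound. The ETS and PU.1 letters both end in GGAAG. Across the set, 17 of the regions (0.166%) overlapped a transfer RNA gene, against 0.238% of all regions.

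The 10 strongest regions, by the mean of their percentile ranks in the middle-aged lists (100 being the strongest peak of a list by −log10 p), were all without a peak in young 3. They also were the 10 strongest among those that met the rule in equally long lists. Their mean ranks were 78.0 to 85.4, 3 lay at a TSS and 6 in an intron. The height of a summit is given as its read pileup divided by the background of the library. The region at the TSS of Klhdc2, which encodes a substrate receptor of an E3 ubiquitin ligase (chr12:69296496-69297428), had heights of 15.2 in young 1 and 19.4 in young 2. In middle-aged 1, 2 and 3 its heights were 27.6, 22.5 and 24.7. All 3 middle-aged values were above both young ones, although the young 2 peak already ranked 83.1 in its list.

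In an intron of Slc6a5, which encodes a glycine transporter (chr7:49923440-49923798), the heights were 7.73 and 13.8 in young 1 and 2 and 20.9, 20.4 and 19.0 in the middle-aged libraries. Ltbp4, which encodes a binding protein of latent TGF-β, had an intronic region 1.60 kb from its TSS (chr7:27335914-27336249) that was called in young 1 alone among the young libraries. There its height was 9.60, and it was 22.0, 19.6 and 19.0 in middle-aged 1, 2 and 3. This gap, a ratio of 2.10, was the largest of the 10.

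At the TSS of Fmc1, a factor for the assembly of mitochondrial ATP synthase (chr6:38534631-38534993), heights were 16.0 and 20.1 in young 1 and 2 and 23.6, 29.97 and 26.9 in the middle-aged libraries. Another 5 were at the TSS of the potassium-chloride cotransporter gene Slc12a4 (chr8:105965938-105966324), in introns of Ldb3 (chr14:34548789-34549723, nearest TSS 9230112D13Rik) and Ttc34 (chr4:154864217-154864792, nearest TSS Mmel1), within the overlapping genes Fgfr2 and Htra1 (chr7:130968510-130968970, nearest TSS Htra1) and in an intron of Smim17 (chr7:6410060-6410452). Over these 5, heights were 8.0 to 18.4 in young 1 and 2 and 15.0 to 24.01 in the middle-aged libraries. In 9 of the 10, every middle-aged height was above every called young height, which held for 39.0% of the whole set. The 10 were picked by middle-aged rank, and young libraries without a peak are left out, so this count is a description. The exception was the region in Ldb3.

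Over the whole set, heights and ranks were modest. Among the young libraries with a peak, the median height was 6.13 (young 1), 7.77 (young 2) and 8.50 (young 3). Middle-aged 1, 2 and 3 gave medians of 8.27, 8.74 and 8.23. By rank, the medians were 29.6, 36.4 and 19.4 for young 1, 2 and 3, against 38.4, 40.01 and 41.9 for the middle-aged lists. The medians thus lay below the middle of every list. The median of the mean middle-aged rank was 38.7, against 75.1 for the 22403 regions called in all 6 libraries and 38.1 for all regions with a middle-aged peak.

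The mean middle-aged height was a median of 1.20 times the mean height in the young libraries with a peak, and it was the higher of both in 81.7% of the regions. In regions called in all 6 libraries this ratio was 1.29, and the middle-aged mean was the higher in 92.9%. The ratio of the set uses only young peaks that passed the caller and leaves out each young library without a peak. For every young library, the median ratio of called heights to the middle-aged mean was higher in the set than in regions called in all 6 libraries. The ratio of the set is thus bound to the rule, and no conclusion is drawn from its being the lower. All 3 middle-aged heights were above each called young height in 3982 regions (39.0%), below them in 538 (5.27%) and overlapping in 5692 (55.7%). These shares leave out young libraries without a peak and were not set against those of other regions. The middle-aged mean was also the higher in most regions called in all 6 libraries, so the shares are not read as particular to the set. The plot of summit heights sets these libraries side by side.

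**Figure D1:**
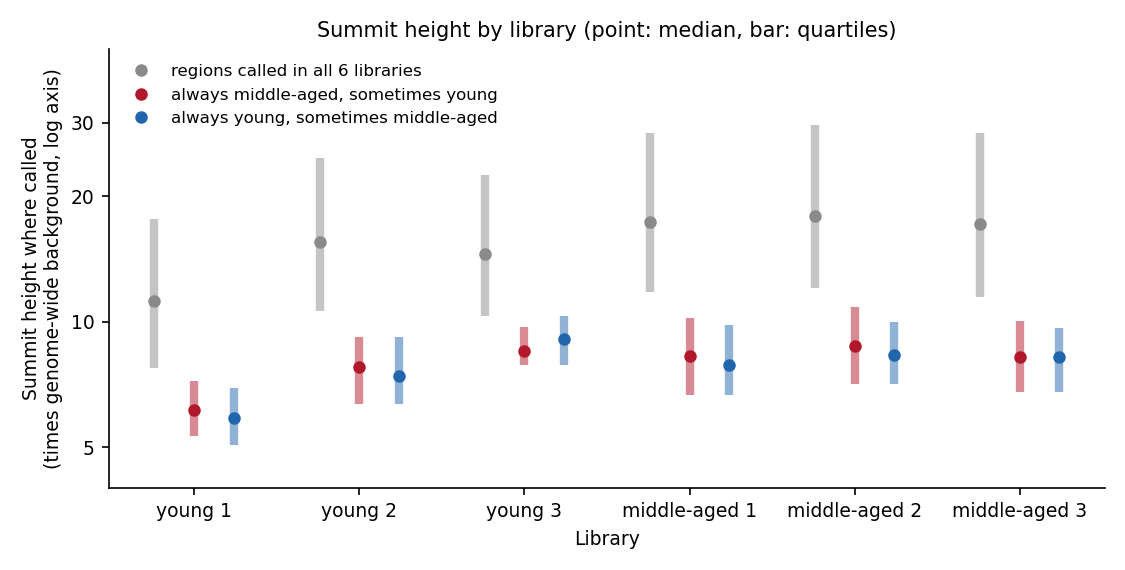
Summit height where a peak was called, in times the genome-wide background on a log axis, for each library (point: median, bar: lower to upper quartile). Regions always middle-aged and sometimes young have medians of 6.13 to 8.74, under those of regions called in all 6 libraries.

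The neighbouring classes of the rule bracket the set. Regions with all 3 middle-aged peaks and no young peak numbered 1411 and had a median middle-aged rank of 24.4. With 1 young peak there were 3468 regions at a median rank of 32.1, with 2 there were 6744 at 42.6, and with all 3 there were 22403 at 75.1. On the other side of the middle-aged threshold, 3668 regions had 2 middle-aged and 1 young peak (median rank 24.3), and 2101 had 2 of each (29.3). Strength rose with each added young call.

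The 34026 regions called in every middle-aged library were sorted into 10 equal groups (deciles) by mean middle-aged rank. The set made up 65.8%, 69.5% and 63.1% of the 3 weakest deciles, 48.4% of the fourth and 32.3% of the fifth. The next 3 deciles held 16.0%, 4.67% and 0.323%, the ninth held 0.0294% and the strongest held 0. Sorting by a middle-aged rank uses the same calls as the rule, so this is a description of where the set sits.

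**Figure D2:**
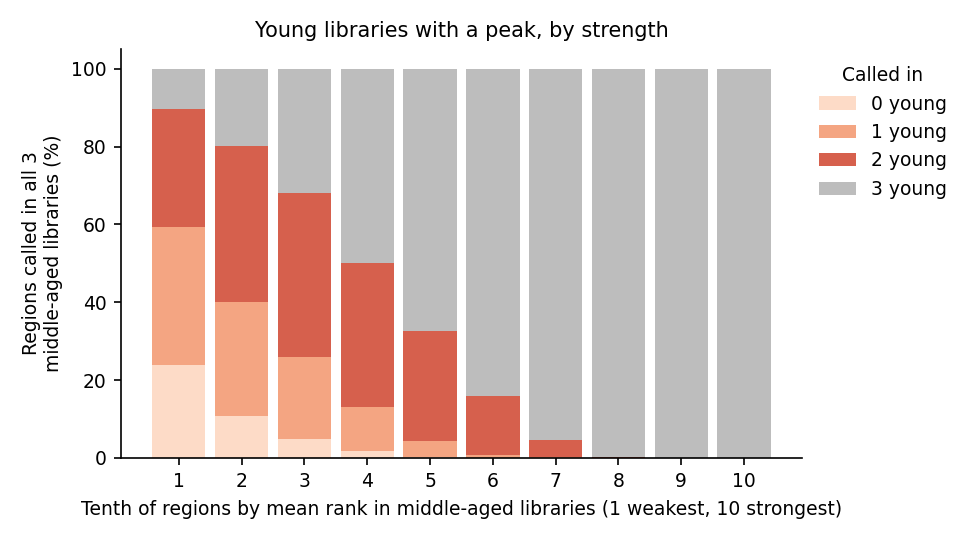
Regions called in all 3 middle-aged libraries, in deciles by mean middle-aged rank (x axis, labelled 1 for the weakest to 10 for the strongest), with the share (y axis, %) called in 0, 1, 2 or 3 young libraries. The orange and red parts, called in 1 or 2 young libraries, make up 69.5% of the second decile and 0% of the strongest.

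The young libraries contributed unequally. Of the 10212 regions, 9018 (88.3%) had a peak in young 2, 6468 (63.3%) in young 1 and 1470 (14.4%) in young 3. The largest group, 5491 regions (53.8%), was called in young 1 and young 2 and lacked young 3. Another 2534 were called in young 2 alone, 993 in young 2 and 3, 717 in young 1 alone, 260 in young 1 and 3, and 217 in young 3 alone.

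The missing calls were set against the strength of the peaks that each young list holds. For the 8742 regions without a young 3 peak, the middle-aged height was multiplied by 0.814, the median ratio of young 3 to middle-aged heights in regions called in all 6 libraries. The scaled median was 6.82, while peaks at the 10% mark of the young 3 list by strength had a height of 7.89, and 70.5% of these regions fell under that height. For the 3744 without a young 1 peak the scaled median was 4.87 against 5.07, with 58.2% under it. For the 1194 without a young 2 peak it was 6.80 against 5.65, with 16.9% under it. At the genome-wide background, the lowest height that could be called was 4.86 in young 3 and 3.47 to 3.75 in the other 5 libraries. Few scaled heights lay under that limit, 4.54% for young 3, 1.95% for young 1 and 0% for young 2. Over 2 times the limit lay 11.5%, 7.72% and 42.3%. Most scaled heights were thus above the lowest callable height, while for young 1 and 3 most were under the height at the 10% mark of the list.

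The reverse pattern, all 3 young libraries and 1 or 2 middle-aged ones, was far rarer in the deposited lists. It held 710 regions (1.11% of all), so the set was 14.4 times as large. The reverse regions were of like strength, with a median middle-aged rank of 35.2, and their calls were spread over middle-aged 1, 2 and 3, at 59.2%, 59.2% and 65.5%.

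List length was then made equal by keeping the 27628 best peaks of each list by −log10 p. The 6 shortened lists merged into 39208 regions, of which 2965 (7.56%) met the rule and 1752 (4.47%) met the reverse one. The ratio fell from 14.4 to 1.69. Young 1, 2 and 3 then had a peak in 67.6%, 69.6% and 36.8% of the set, and 1264 regions (42.6%) lacked young 3 alone. Young 3 kept its whole list at this length, yet it was still the library most often missing. Without young 3, the deposited lists gave 4506 regions with all middle-aged peaks and 1 of the 2 other young ones, and 2898 of the reverse pattern.

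**Figure D3:**
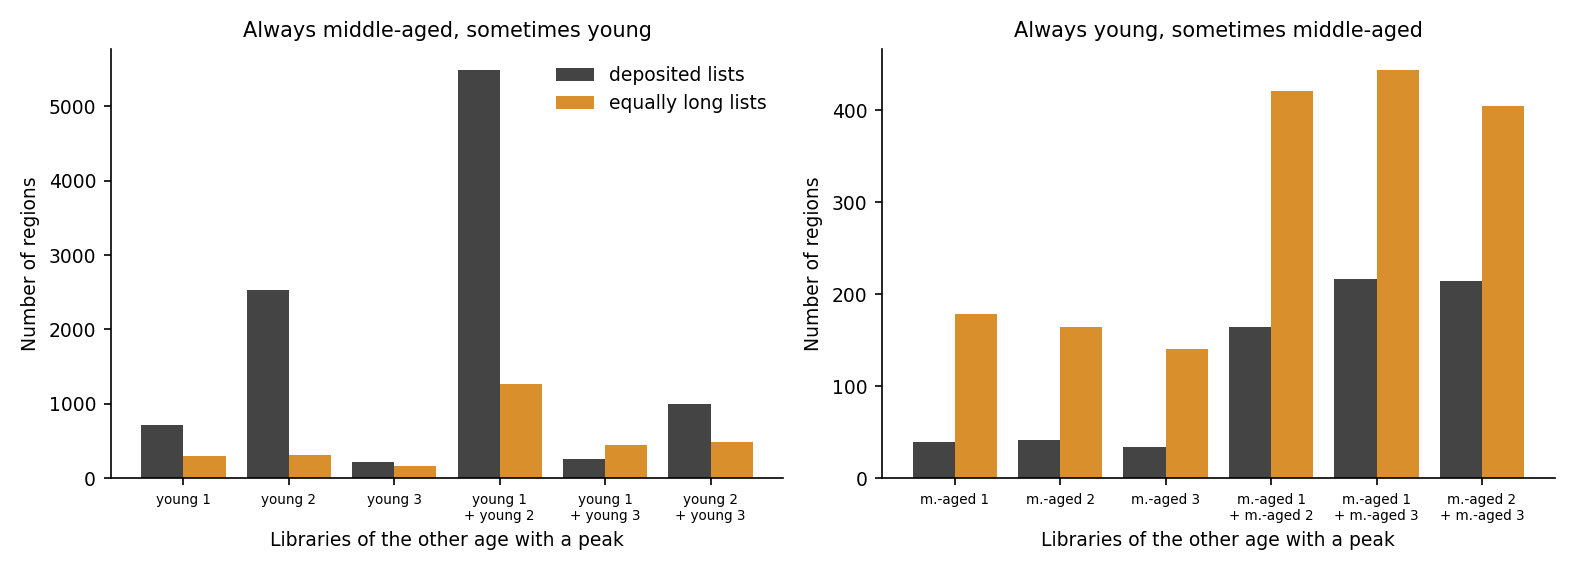
Number of regions (y axis, scaled separately in each panel) by the libraries of the other age with a peak (x axis), in the deposited and the equally long lists. In the set the deposited lists are led by the 5491 regions lacking young 3, which become 1264 in equally long lists, while every bar of the reverse pattern rises.

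Read on the original regions, 2104 of the 10212 (20.6%) still met the rule with equally long lists. Another 5312 (52.0%) kept a peak in only 1 or 2 middle-aged libraries, 1450 (14.2%) had no peak left, 1159 (11.3%) kept young peaks alone, and 187 (1.83%) kept all middle-aged and no young peaks. A further 862 regions entered the set from those called in all 6 libraries. Scaling all lists to the lowest background in place of equal length kept 9687 of the regions (94.9%) in the set.

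Since the rule uses the calls in all 6 libraries, libraries were held out to obtain calls it had not used. In each of 9 choices, 1 middle-aged and 1 young library were set aside, regions were defined by both remaining middle-aged libraries and exactly 1 of the remaining young ones, and the peaks of the held-out libraries were read. In the deposited lists, 83.5% of such regions had a peak in the held-out middle-aged library and 57.5% in the held-out young one, a difference of 25.9 percentage points. Regions of the reverse pattern gave 76.6% and 51.6%, a difference of 25.03 points in the same direction.

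The difference between both patterns was 0.914 points (SD 2.75 over the 9 choices, which share libraries; range −2.26 to 5.32, above 0 in 6 of 9). It was not larger than other assignments of the libraries gave (exact permutation test over 20 assignments, two-sided p = 0.4). For regions defined by both remaining middle-aged and 1 remaining young library, the held-out young library had a peak in 63.1% if it was young 1. The share was 84.6% if it was young 2 and 24.9% if young 3. For the reverse pattern these shares were 52.3%, 77.9% and 24.6%. The identity of the young library moved these shares more than the pattern did.

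With equally long lists the held-out shares were 74.5% in middle-aged and 67.5% in young libraries for regions defined by both remaining middle-aged and 1 remaining young library. This was a difference of 7.06 points. They were 66.5% and 65.2% for the reverse pattern, a difference of 1.27 points. The patterns then differed by 5.79 points, above 0 in 9 of 9 choices with a range of 3.28 to 7.95 (exact permutation test, two-sided p = 0.1). This is the smallest p that 3 libraries against 3 allow, so no comparison here could pass 0.05.

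**Figure D4:**
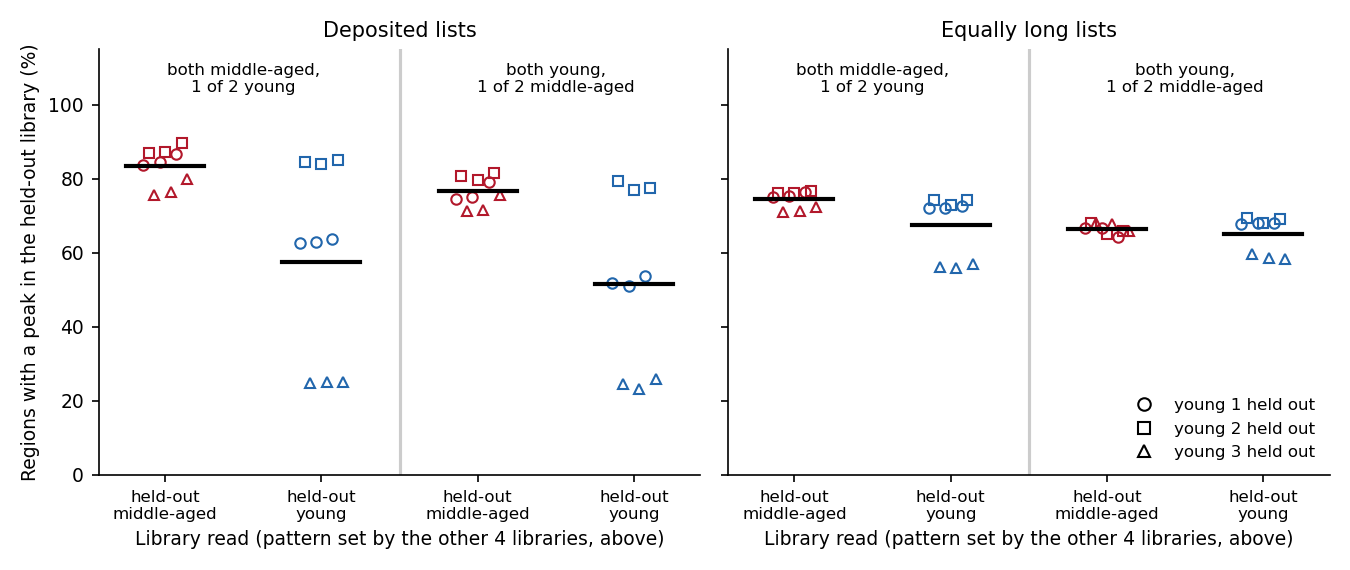
Share of regions (y axis, %) with a peak in a library that was not used to define them, for regions defined by both other middle-aged and 1 of 2 young libraries and for the reverse pattern. Each symbol is 1 of 9 choices, its shape gives the young library held out and the black lines are means. For the first kind of region the means are 83.5% and 57.5% in the deposited lists and 74.5% and 67.5% in equally long ones.

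Most of the set lay away from promoters. Of the 10212 regions, 1799 (17.6%) lay within 1000 bp of a protein-coding TSS, 265 (2.59%) had their strongest summit in an exon, 3833 (37.5%) in an intron and 4315 (42.3%) between genes. A TSS share of 25.2% was found over all regions, 46.3% in regions called in all 6 libraries, 15.8% in the reverse pattern and 12.2% in regions called in all middle-aged and no young library. Seen from the annotation, 11.2% of TSS regions belonged to the set, against 17.0% to 17.9% of exonic, intronic and intergenic ones. Among regions called in every middle-aged library these shares were 14.6% and 38.6% to 39.8%.

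The median distance to the nearest protein-coding TSS was 19.0 kb in the set, and 27.2% lay beyond 50 kb. The regions had a median width of 372 bp, against 549 bp for regions called in all 6 libraries and 340 bp for the reverse pattern. Their summit windows had a median GC content of 51%, which was 64% at a TSS. Members were spread over the genome, with 15.1% to 17.1% of the regions of each autosome in the set, 13.2% of those on chromosome X and 2 of 21 on chromosome Y. Within 10 kb of another member lay 1733 of them (17.0%), and within 10 kb of a region called in all 6 libraries lay 31.7%.

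By nearest TSS, the regions fell to 6390 of the 16080 protein-coding genes (39.7%) that were nearest to any region. Of these genes 4178 had 1 such region, 1330 had 2, 697 had 3 or 4, and 185 had 5 or more. Tns3, which encodes the focal adhesion protein tensin 3, was nearest to 11 of the set among its 45 regions. Elmo1, a regulator of Rac activation in phagocytosis and migration, had 10 of 38. Nfatc2, a calcium-dependent transcription factor, had 10 of 24, and Zfp36l2, an RNA-binding protein that promotes mRNA decay, had 10 of 35. Auts2, Gm826, Med13l, Nav2, Rasgef1b and Zmiz1 followed with 9 each.

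These genes were nearest to many regions outside the set as well. Tns3 also had 13 regions called in all 6 libraries, Elmo1 11, Nfatc2 7 and Zfp36l2 14. Of the reverse pattern, which held 1.11% of all regions, Zfp36l2 had 1 region and the other 3 genes had 0. The mean middle-aged ranks of their members ran from 8.59 to 49.3 for Tns3 and from 12.2 to 68.7 for Nfatc2. In equally long lists 4 of the Nfatc2 members and 3 of the Elmo1 members were still in the set, and 0 of those of Tns3 and Zfp36l2.

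Notch pathway genes were read next, since the study follows this pathway in ageing SSPCs. Of the 190 regions nearest to the 30 listed genes, 25 (13.2%) were in the set, against 16.0% of all regions, and 73 were called in all 6 libraries. Of the regions called in every middle-aged library the set made up 24.3% near these genes and 30.01% overall. The 25 belonged to 16 genes, and none lay within 1000 bp of a TSS, where 17.6% of the whole set did. Of the 30 genes, 20 had a TSS peak in every library and 6 in none. A start site called in every library or in none cannot meet the rule. The median middle-aged rank of the 25 was 40.8, against 38.7 for the set. In equally long lists 10 of 114 regions near these genes met the rule (8.77%, against 7.56% of all regions). The reverse rule was met by 12, against 4.47% of all regions.

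Among the ligands, Jag1 had 3 members and Dll1 and Jag2 had 1 each. Among the receptors, Notch1 had 1 and Notch3 had 2. The 4 strongest members were near Hey1, Maml3, Rfng and Hes1. Hey1, a repressor induced by Notch, had a member in an exon (chr3:8664538-8664887, 2.56 kb from the TSS) with heights of 10.7 and 16.3 in young 1 and 2, against 16.5, 20.4 and 21.5 in middle-aged 1, 2 and 3. The lowest middle-aged value was just above the higher young one.

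Maml3, a coactivator of the Notch complex, had an intronic member (chr3:51943610-51944145) with heights of 6.13 and 8.13 in young 1 and 2 and 11.4, 12.1 and 13.3 in the middle-aged libraries. Hes1, another target, had one 74.0 kb from its TSS (chr16:29991178-29991521) with heights of 5.87 and 14.1 in young 1 and 2 and 8.66, 11.7 and 10.7 in the middle-aged libraries. Here the young 2 peak was the highest of all. Near Rfng, which encodes a glycosyltransferase that modifies Notch (chr11:120776068-120776462), the height was 10.6 in young 2, the one young library with a peak, and 10.6, 9.16 and 9.31 in the middle-aged ones.

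Genes of the SSPC and marrow niche list held 21 of 148 regions in the set (14.2%, against 16.0% of all regions), near 17 of 20 genes, and 4 of them at a TSS. Of their regions called in every middle-aged library these were 38.2%. The strongest lay in an exon of Vcam1, which encodes an adhesion molecule of marrow stroma (chr3:116122748-116123109), with heights of 8.27 and 8.13 in young 1 and 2 and 12.99, 14.6 and 12.9 in the middle-aged libraries. Ebf3, a transcription factor of niche stroma, had one 7.21 kb upstream of its TSS (chr7:137321527-137321829) with 6.40 and 8.13 in young 1 and 2 and 11.8, 9.57 and 11.5 in the middle-aged libraries. In both regions every middle-aged height was above the called young ones, with the young library without a peak left out. The same held for 39.0% of the whole set, and both regions were picked by middle-aged rank.

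Near Grem1, which encodes a BMP antagonist, a member in an intron of Fmn1 (chr2:113645730-113646055) had 7.20 and 8.83 in young 1 and 2 and 10.2, 9.57 and 8.95 in the middle-aged libraries. A member 122 kb from Cd34 had 8.53 and 8.13 in young 1 and 2 and 12.2, 12.1 and 6.80 in the middle-aged ones, so middle-aged 3 was below both. In equally long lists 6 of 71 regions near genes of the list met the rule (8.45%, against 7.56% of all regions). The reverse rule was met by 2, against 4.47% of all regions.

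Near osteogenic genes 21 of 117 regions were in the set (17.9%), and near adipogenic genes 11 of 100 (11%), against 16.0% of all regions. Of the regions called in every middle-aged library, these were 42% and 22.4%, against 30.01% overall. Spp1, which encodes the bone matrix protein osteopontin, had 2 intergenic members. The stronger (chr5:104396337-104396670) had heights of 6.67 and 9.19 in young 1 and 2 and 11.02, 10.4 and 14.7 in the middle-aged libraries. Col1a2, which encodes a chain of type I collagen, had a member 16.3 kb from its TSS (chr6:4488327-4488700) that was called in young 2 and young 3, at 9.19 and 7.89, and had 8.27, 9.16 and 11.5 in the middle-aged libraries. Those groups overlapped.

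Cebpa, an adipogenic transcription factor, had a member 31.7 kb from its TSS (chr7:35150801-35151214) with 5.87 and 7.42 in young 1 and 2 and 12.2, 10.8 and 14.3 in the middle-aged libraries. Zfp423, a factor of preadipocytes, had one at its TSS (chr8:87958713-87959245) with 6.67 and 12.4 in young 1 and 2 and 16.1, 14.6 and 14.0 in the middle-aged libraries. Near Adipoq, which encodes the adipokine adiponectin, a member 35.2 kb from the TSS (chr16:23181495-23181996) had 4.27 and 5.65 in young 1 and 2 and 8.27, 8.74 and 8.23 in the middle-aged libraries. These 3 members were higher in every middle-aged library than in the young ones with a peak, as were 39.0% of the whole set. They were picked by middle-aged rank, and those near Cebpa and Adipoq did not meet the rule in equally long lists. Other members near the same genes were not. A second Adipoq member, 20.7 kb from the TSS, had a mean height of 6.73 in middle-aged libraries and 7.09 in the young ones with a peak. A second Zfp423 member, 14.8 kb from the TSS, had 8.47 and 8.48. The median middle-aged rank was 37.4 for the osteogenic and 43.2 for the adipogenic members, and in equally long lists the set and the reverse pattern had 7 regions each near osteogenic and 3 each near adipogenic genes. The set then made up 10.6% and 5.26% of the regions of these lists, against 7.56% of all regions.

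Chondrogenic genes held 10 of 73 regions (13.7%, against 16.0% of all regions), which was 40% of their 25 regions called in every middle-aged library. The strongest was at the TSS of Matn3, a cartilage matrix protein (chr12:8947686-8948065), with heights of 7.47 and 14.8 in young 1 and 2 and 9.84, 12.1 and 14.3 in the middle-aged libraries. Contractile and pericyte genes held 9 of 45 (20%), which was 56.25% of their 16 regions called in every middle-aged library, against 30.01% overall. Among them was a region 10.2 kb upstream of the actin gene Acta2 with heights of 6.13 and 8.83 in young 1 and 2 and 8.66, 9.57 and 10.0 in the middle-aged libraries. The groups overlapped in both. In equally long lists 3 of 30 regions near chondrogenic genes met the rule, and 3 met the reverse one. Near contractile and pericyte genes these were 2 and 1 of 19 regions. Of all regions, 7.56% and 4.47% did. Notch3 is in the contractile and pericyte list and in the Notch list, so its 2 members were counted in both.

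Genes of other cells of the marrow were read in the same way. Endothelial genes had 14 of 61 regions in the set (23.0%) and macrophage genes 20 of 91 (22.0%), against 16.0% of all regions. Neither list had a region of the reverse pattern, which held 1.11% of all regions. The adipogenic list and the lymphoid and erythroid list had none either. Of the regions called in every middle-aged library, the set made up 45.2% near endothelial and 30.8% near macrophage genes, against 30.01% of all such regions. In equally long lists these shares were 6.06% and 4.29%, under the 7.56% of all regions, with 2 regions in the set and 3 of the reverse pattern near endothelial genes and 3 and 2 near macrophage genes. The summed TSS heights of the endothelial genes were 35.2 to 43.5 in young and 45.5 to 62.2 in middle-aged libraries, with no TSS peak in any library at Tie1, Emcn, Vwf, Sox17, Sox18 or Cldn5, and those of the macrophage genes are given above. The part of these cells was not tested. The strongest macrophage member lay 22.8 kb upstream of Adgre1, which encodes F4/80 (chr17:57335735-57336025). It was called in young 2 and 3, at heights of 12.0 and 11.5, and had 15.3, 13.7 and 19.3 in the middle-aged libraries. At the TSS of Tyrobp, a signaling adaptor of myeloid cells (chr7:30413607-30413982), heights were 9.07 and 13.1 in young 1 and 2 and 9.05, 18.7 and 15.0 in the middle-aged libraries, so middle-aged 1 was the lowest of all.

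Kdr, which encodes a VEGF receptor, had an endothelial member 12.0 kb upstream (chr5:75990243-75990639) with heights of 6.67 and 7.42 in young 1 and 2 and 9.45, 7.91 and 12.5 in the middle-aged libraries. Among lymphoid and erythroid genes, 3 of 17 regions were in the set, near Epor, Tal1 and Rag1, and none met the rule in equally long lists. The median middle-aged ranks of the lists lay between 37.4 and 43.4.

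Sequence letters were counted in the 200-base summit windows of the 8413 regions of the set that lay away from a TSS, beside the 598 such regions of the reverse pattern. The letters of PU.1, an ETS factor of myeloid and B cells, were in 17.5% of the set and 27.4% of the reverse pattern, with 27.4% of regions called in all 6 libraries and 19.5% of all regions. The difference was −9.92 percentage points. It was −7.93 points with equally long lists (20.7% and 28.6%) and −5.93 points without young 3 (16.3% and 22.3%).

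Letters of TEAD, which acts in the Hippo pathway, and of CTCF, which binds at domain boundaries, went the other way. TEAD letters were in 15.2% and 11.2%, a difference of 4.0 points that was 2.23 with equally long lists and 1.55 without young 3. They were in 14.6% of all regions away from a TSS and 11.2% of those called in all 6 libraries. The set was thus nearer to the share of all regions than the reverse pattern was. CTCF letters were in 18.5% and 14.2%, a difference of 4.26 points that was 7.95 with equally long lists and 1.11 without young 3. All regions away from a TSS, at 16.7%, lay between both. AP-1 letters were in 20.2% and 19.6%, RUNX letters in 26.1% and 26.6%, RBPJ letters in 20.2% and 20.7%, C/EBP letters in 12.6% and 11.4%, and EBF letters in 6.39% and 7.36%. In the same order, all regions away from a TSS had 19.6%, 25.4%, 20.5%, 12.8% and 6.79%. For AP-1 and RUNX the sign changed between settings, over ranges of −3.24 to 2.99 and −1.88 to 2.71 points.

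**Figure D5:**
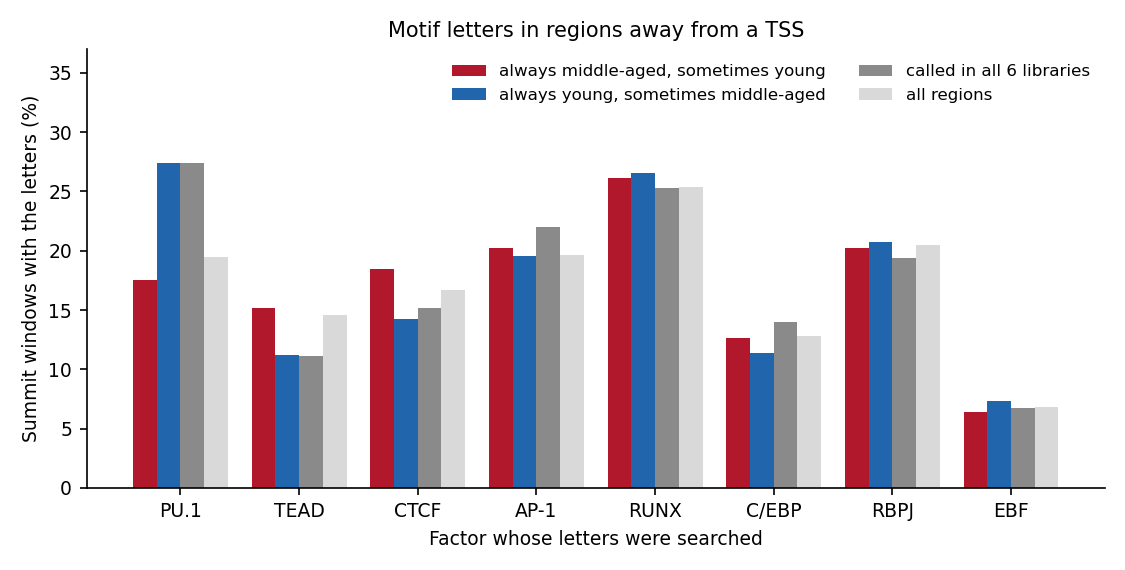
Share of 200-base summit windows (y axis, %) that hold the letters of each factor (x axis), in regions away from a TSS. Windows of regions always middle-aged and sometimes young have PU.1 letters in 17.5%, against 27.4% in the reverse pattern and in regions called in all 6 libraries.

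Within the set, PU.1 letters moved with the young library that had the peak. They were in 13.1% of regions away from a TSS called in young 1 alone, 14.8% in young 2 alone and 22.4% in young 3 alone. They were in 18.3% with young 1 and 2, 18.6% with young 1 and 3, and 22.1% with young 2 and 3. The 3 shares that include young 3 were the highest, but young 3 alone rests on 183 regions.

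The same letters were read in every region of a library away from a TSS, which does not use the rule. These 5 letter sets were picked from 12 with the differences above known. Both readings rest on the same peak lists, so the p-values are no independent test of those differences. The adjustment covers the 5 sets alone. PU.1 letters were in 23.7%, 22.2% and 26.7% of the regions of young 1, 2 and 3 and in 21.5%, 20.8% and 20.3% of those of middle-aged 1, 2 and 3. The means were 24.2 ± 2.30% (SD, n = 3) and 20.9 ± 0.591% (SD, n = 3), with no overlap (exact permutation test, two-sided p = 0.1, adjusted p = 0.167 over 10 comparisons of 5 letter sets in both kinds of list). With equally long lists they were 26.1 ± 0.538% and 24.8 ± 0.483% (SD, n = 3; exact permutation test, two-sided p = 0.1, adjusted p = 0.167). CTCF letters in equally long lists were in 16.1 ± 0.610% of young and 17.4 ± 0.154% of middle-aged regions (SD, n = 3; exact permutation test, two-sided p = 0.1, adjusted p = 0.167). In the deposited lists CTCF letters were in 16.1 ± 0.595% and 16.9 ± 0.176% (SD, n = 3; exact permutation test, two-sided p = 0.1, adjusted p = 0.167).

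TEAD letters did not overlap between the groups in the deposited lists, at 12.6 ± 0.935% in young and 14.0 ± 0.189% in middle-aged libraries (SD, n = 3; exact permutation test, two-sided p = 0.1, adjusted p = 0.167). In equally long lists they did, at 11.5 ± 0.113% and 11.9 ± 0.241% (SD, n = 3; exact permutation test, two-sided p = 0.2, adjusted p = 0.25). AP-1 letters, lower in middle-aged libraries, also overlapped only in equally long lists, with 21.3 ± 0.286% in young and 19.9 ± 0.430% in middle-aged libraries in the deposited lists (SD, n = 3; exact permutation test, two-sided p = 0.1, adjusted p = 0.167) and 21.6 ± 0.463% and 20.8 ± 0.637% in equally long ones (SD, n = 3; exact permutation test, two-sided p = 0.2, adjusted p = 0.25). RUNX letters overlapped in both, at 25.3 ± 0.415% and 25.6 ± 0.226% in the deposited lists (SD, n = 3; exact permutation test, two-sided p = 0.4, adjusted p = 0.444) and 24.8 ± 0.124% and 25.1 ± 0.398% in equally long ones (SD, n = 3; exact permutation test, two-sided p = 0.5, adjusted p = 0.5).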

How the data were processed

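ATAC-seq peak lists of 6 libraries, 3 young and 3 middle-aged by their titles, were analysed. Base calls were converted with bcl2fastq per the labels. The authors aligned reads to mm10 with Bowtie2, removed duplicates with Sambamba and called peaks per library with MACS. Transposase shifting is not given in the sources used here. Per peak the authors deposited a score (10 times the −log10 q as a whole number), a fold enrichment (a linear ratio of summit pileup to local background), a −log10 p and a −log10 q. Read depth is unknown. The DiffBind comparison of the authors needs reads and was not repeated.

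Fold enrichment and −log10 p were solved for the whole-read summit pileup and the background under the Poisson model of the caller, with an error in −log10 p of at most 3.11e-04. Peaks were merged at 1 bp overlap and ranked within their list by −log10 p. Annotation was GENCODE vM21 (protein-coding transcripts, TSS window 1000 bp), and transfer RNA genes were those of RefSeq. Nearest genes are by distance to the summit and imply no regulation. Equally long lists held the 27628 best peaks. Thinning scaled pileups to the lowest background and kept a −log10 p of at least 4.05. Held-out calls were compared by an exact permutation test over 20 assignments. The procedures were tested on simulated data. For held-out calls the simulated lists were of equal length, which does not cover the unequal deposited lists.

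Named were the 10 regions of highest mean middle-aged rank, the 10 highest among those meeting the rule in equally long lists, up to 4 per gene list and the 5 genes with most regions, where 6 genes tied at 9 for the fifth place. For the lists not all 4 are described. Sequences are from up to 6 of these regions, and windows that touch an exon were left out afterwards. A region of the 10 is not reported here by name. The members, the 9 gene lists and the letters of 12 motifs were chosen with earlier results of these data known, and support nothing on their own. Letters away from a TSS and their alternatives were chosen after seeing these values. Python 3.11.15, numpy 2.4.6, pandas 2.3.3 and scipy 1.17.1 were used.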

Additional observations from a re-analysis of the deposited data

How the results depend on the processing

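The size of the set depended on the lists. With equally long lists it held 2965 regions and the reverse pattern 1752, against 10212 and 710. Leaving out 1 library at a time gave 4506 to 12356 regions in the set and 451 to 2898 in the reverse pattern. Without young 3 they were 4506 and 2898, and without young 1 the reverse pattern held 1373. Without middle-aged 1 or middle-aged 2 it held 462 or 451. With 1 library left out the rule has fewer libraries to meet, so part of this follows from its construction. A minimum −log10 q of 5, a shared −log10 p, thinning and a 50% reciprocal overlap kept both counts within 1.5 times, at 9048 to 10880 and 604 to 1057. The share at a TSS ran from 14.0% without young 3 to 24.2% with equally long lists. The held-out difference of 0.914 points was above 0 under each alternative, from 0.822 with a common −log10 p to 5.79 with equally long lists, with 2.05 at a minimum −log10 q of 5 (exact permutation test, two-sided p = 0.1). With a replicate block, exchanging ages within pairs of equal number, it was 1.42 (exact permutation test over 8 exchanges, two-sided p = 0.25, the smallest possible). Deviations of same-numbered libraries correlated at 0.003, −0.003 and −0.041. This does not show whether libraries of equal number were handled together, on which the labels are silent. The held-out difference was not computed with 1 library left out, since the pattern needs 2 remaining libraries of each age. Nor was it computed with reciprocal overlap, which was not planned for it. Read depth is not known, so a missing call is not shown to be closed chromatin.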
